A study of Prunus persica with 2 samples.

Results

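The 15 genes described here lie close together on the peach (Prunus persica) pseudomolecule Pp01, with 3 genes of other forms between them, and share a form of 2 exons. They were chosen among 26873 annotated genes by position and exon number: every annotated transcript had to lie between 9985000 and 10062000, and the largest exon number of the gene had to be 2. The stretch itself was chosen by measured values: neighbouring genes in it had higher FPKM in the yeast library than in the control library. The differences given below therefore describe genes picked for them and carry no test. Reading the exon limit as at most 2 would add 1 gene without reads, Prupe.1G128100, and give 16.

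RNA came from the wounds of peach fruit. The yeast library was made from wounds that had received 30 μL of a suspension of Pichia membranaefaciens, a yeast studied for biological control of postharvest rot, and the control library from wounds that had received 30 μL of sterilized water. Both groups of fruit were incubated at 28 °C in air of 95% relative humidity and sampled 3 days after treatment. There is 1 library per group, no source used here gives the number of fruit behind each, and no value below has a replicate error. The series set out to examine resistance-related genes whose expression differs with and without the yeast.

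Runs of neighbouring genes of the same form often arise by tandem duplication, in which a copy of a gene is left beside its source. In plants such arrays are common among gene families of defence and stress responses, where copies can keep a shared response while drifting far apart in level. Recent copies can be alike enough in sequence for a short read to match more than 1 of them, which makes the value of a single copy less certain than the value of the array. Neither the files nor the reference table name the products of these genes, so no role is given for any member, and the labelled tissue could not be checked against marker genes.

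Values are FPKM, the number of fragments scaled by transcript length and library depth, summed over each gene's own annotated transcripts. The yeast library held about 25100000 fragments and the control library about 26800000, as estimated from coverage. At least 1 FPKM was reached by 12906 annotated genes in the yeast library and by 12858 in the control library. Differences are of log2(FPKM + 1), yeast minus control, and a gene counts as higher at a difference of 1 or more if it reached 1 FPKM in at least 1 library. Ratios are plain FPKM ratios, yeast over control, with 95% intervals from estimated fragments, which cover counting error only. For single genes these are exact (Clopper-Pearson) intervals. For sums of genes the exact interval of the pooled fragments was rescaled to centre on the FPKM ratio, so it is approximate.

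The cluster runs over 72.9 kb, from 9985573 to 10058484, in the coordinates of the deposited tables. The plus strand carries 11 of the 15 members. The minus strand carries 4, Prupe.1G127400, Prupe.1G127700, Prupe.1G128200 and Prupe.1G128400. Of the 14 pairs of consecutive members 6 have the same strand, 4 point toward each other and 4 point away from each other. The gaps between consecutive members range from 817 bases, between Prupe.1G128900 and Prupe.1G129000, to 11158 bases, between Prupe.1G127300 and Prupe.1G127400, with a median of 3602 bases. At the density of Pp01 as a whole, 77 kb would hold 1.50 genes of 2 exons.

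**Figure D1:**
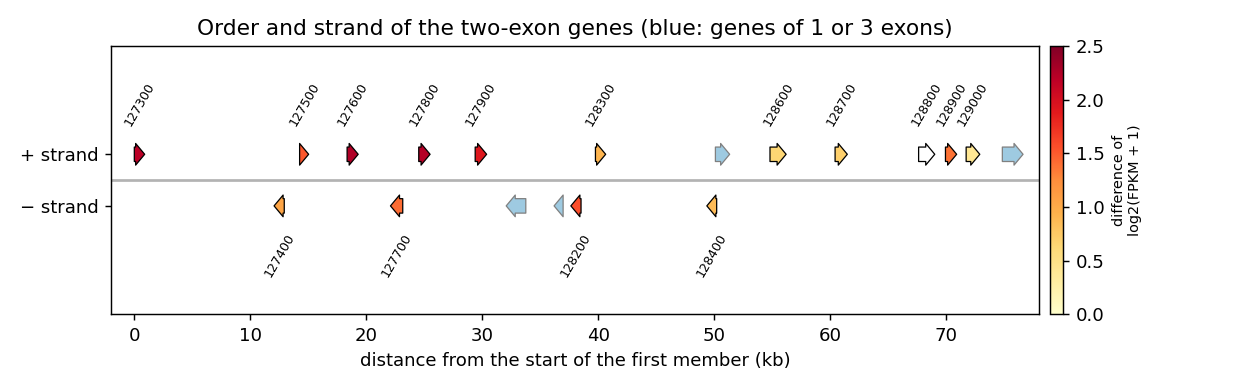
The members along Pp01 by distance from the start of the first member (kb), with arrows on the plus or minus strand, coloured by the difference of log2(FPKM + 1), yeast minus control; the white arrow is the member without reads and blue arrows are genes of 1 or 3 exons in the same window. The 7 members on the left all have differences above 1, and 2 of the 8 on the right do. The boundary between left and right came with the selection of the stretch.

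The members also share a short intron, a feature the selection did not use. Intron length, taken as the span less the transcript length (the longest for Prupe.1G127600, which alone has 2 annotated transcripts), ran from 97 bases in Prupe.1G128900 to 223 bases in Prupe.1G128600, with a median of 109 bases. Over all 4518 annotated genes of 2 exons the median was 252 bases, with quartiles of 117 and 662 bases. The members' full range, 97 to 223 bases, held the introns of 1406 of all 4518 genes of 2 exons (31.1%). A narrower range of 97 to 135 bases held 722 of them (15.98%) and 13 of the 15 members (86.7%). Both bounds were taken from the members' own values. The upper one was set to leave out the 2 longest member introns, so the members' share was fixed in advance. The intron measured 109 bases in 4 members, Prupe.1G127300, Prupe.1G127500, Prupe.1G127900 and Prupe.1G128200, and 135 bases in 2, Prupe.1G127400 and Prupe.1G128300. These last genes also have nearly equal transcripts, of 745 and 747 bases. Transcript length over the members ran from 638 to 1222 bases, with a median of 870 bases, compared with 1166 bases over all genes of 2 exons.

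Each of the 15 members is overlapped by a protein-coding RefSeq gene of the Prunus_persica_NCBIv2 assembly over at least 50% of the longer span. An overlap of that size with any RefSeq gene held for 21086 of 26811 annotated genes on the 8 pseudomolecules (78.6%). No source used here names the build of the deposited tables, so RefSeq symbols are matches by position only. By name, 0 identifiers matched any field of that table. By position, the most abundant member, Prupe.1G128700, corresponds to LOC18790062, and the next in abundance, Prupe.1G127800 and Prupe.1G127900, correspond to LOC18790057 and LOC18790061.

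A single gene dominates the cluster. Prupe.1G128700, on the plus strand from 10046006 to 10047060, had 7998 FPKM in the yeast library and 4932 FPKM in the control library, resting on about 192283 fragments in the yeast library and 126449 in the control library. Among all annotated genes it ranked 4 in abundance in the yeast library and 7 in the control library. It held 93.5% of the summed FPKM of the cluster in the yeast library and 97.4% in the control library.

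The next members were far below it. Prupe.1G127800, from 10010102 to 10011080, had 286 FPKM in the yeast library and 59.99 FPKM in the control library, and ranked 223 with the yeast and 1619 without it among all annotated genes. Prupe.1G127900, the plus-strand neighbour from 10014969 to 10015956, had 123 FPKM in the yeast library and 31.9 FPKM in the control library, and ranked 671 with the yeast and 2979 without it. Within the cluster Prupe.1G128700, Prupe.1G127800 and Prupe.1G127900 held ranks 1, 2 and 3 in both libraries.

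A middle group lay between about 7 and 41 FPKM in the yeast library. Prupe.1G127600, from 10003924 to 10004880, had 40.7 FPKM with the yeast and 7.79 FPKM without it. Prupe.1G127500, from 9999861 to 10000607, had 39.2 FPKM with the yeast and 13.0 FPKM without it. The order of this pair differed between the libraries, with Prupe.1G127600 at rank 4 within the cluster with the yeast and at rank 5 without it. Prupe.1G128200, on the minus strand from 10023220 to 10024097, had 24.4 FPKM in the yeast library and 7.60 FPKM in the control library. Prupe.1G127300, at the left end from 9985573 to 9986467, had 16.9 FPKM in the yeast library and 2.90 FPKM in the control library. Like every other gene of this middle group, both were above their control value by more than the difference of 1 that counts as higher. Prupe.1G128900, from 10055524 to 10056490, had 9.27 FPKM in the yeast library and 2.93 FPKM in the control library. Prupe.1G127700, on the minus strand from 10007664 to 10008722, had 7.17 FPKM with the yeast and 2.06 FPKM without it.

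The remaining 6 members were low or without reads. Prupe.1G128400, from 10034946 to 10035794 on the minus strand, had 2.55 FPKM in the yeast library and 0.953 FPKM in the control library. Prupe.1G127400, from 9997626 to 9998505 on the minus strand, had 2.28 FPKM in the yeast library and 0.588 FPKM in the control library. Prupe.1G128300, from 10025340 to 10026221, had 2.28 FPKM in the yeast library and 0.737 FPKM in the control library. These 3 genes reached 1 FPKM with the yeast and not without it, so they entered the comparison through the library in which they were more abundant. Prupe.1G128600, from 10040392 to 10041784, had 0.660 FPKM with the yeast and 0.0638 FPKM without it, the second value resting on 2 fragments. Prupe.1G129000, from 10057308 to 10058484, had 0.511 FPKM with the yeast and 0.141 FPKM without it. Prupe.1G128800, from 10053209 to 10054601, was listed at 0 in both libraries, where a count of 0 allows up to 0.0977 FPKM with the yeast and up to 0.0916 FPKM without it (3 fragments each).

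**Figure D2:**
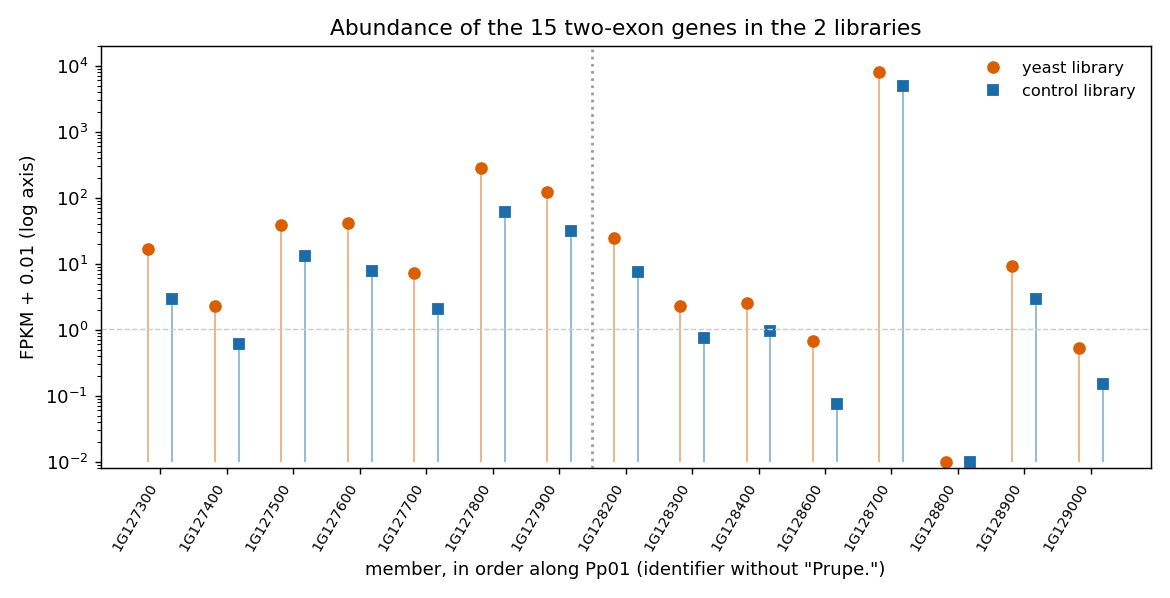
FPKM of each member (plus 0.01, log axis) in the yeast library (circles, left of each pair) and the control library (squares), in order along Pp01; the dotted line separates the 7 genes on the left from the 8 on the right and the dashed line marks 1 FPKM. In all 14 members with reads the yeast value lies above the control value, and Prupe.1G128700, with 7998 and 4932 FPKM, stands far above the rest.

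The cluster kept nearly the same order of abundance while its level differed. Within the cluster 7 of the 15 members held the same rank in both libraries, and no other member moved by more than 1 place. All 14 members with reads were above their control value, as were 51.0% of all annotated genes tested. Of the 12 that reached 1 FPKM in at least 1 library, 9 were higher by the rule and none (0) was lower. Over all 13351 annotated genes tested 2.30% were higher and 2.33% lower. Among the 1420 of them with 2 exons 3.66% were higher and 1.83% lower. The stretch was picked for this contrast, so these counts are descriptive. The 3 tested members short of the threshold were Prupe.1G128300, Prupe.1G128400 and Prupe.1G128700, with differences of 0.92, 0.86 and 0.70. The member just past it was Prupe.1G127400, with 1.05. The differences of the tested members had a median of 1.47, compared with 0.01 over all annotated genes tested, of which the central 90% lay between -0.64 and 0.65.

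**Figure D3:**
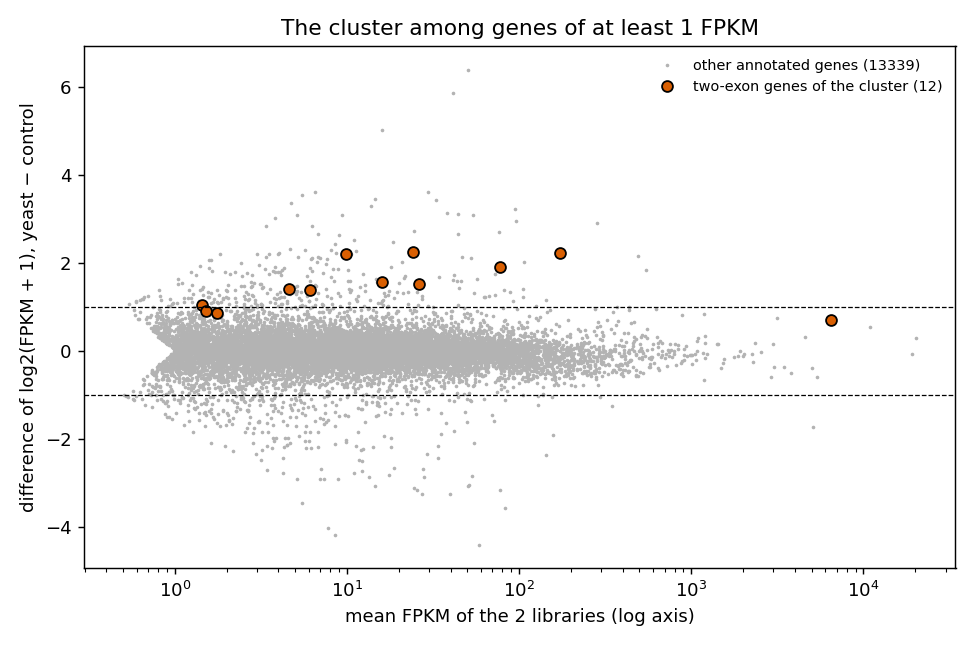
Difference of log2(FPKM + 1), yeast minus control, against the mean FPKM of the 2 libraries (log axis) for annotated genes of at least 1 FPKM in 1 library; members of the cluster are large circles and dashed lines mark 1 and -1. The 12 members plotted all lie above 0, between 0.70 and 2.25, over mean levels from under 2 FPKM to that of Prupe.1G128700 at the far right.

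On the scale of plain ratios the left and right parts of the cluster look more alike than the counts by the rule. The left part is the 7 genes that end by 10015956 and the right part the 8 genes from 10023220 on. By the rule all 7 genes on the left were higher, and on the right 2 of the 5 tested. A ratio of 2 or more, chosen as a second rule after seeing the data, was met by 11 of the 12 tested members, 7 on the left and 4 on the right, and by 4.17% of 13326 annotated genes with reads in both libraries. The members on the right that met it without passing the first rule, Prupe.1G128300 and Prupe.1G128400, had ratios of 3.09 (interval 1.67 to 5.92) and 2.68 (1.55 to 4.85). At their low level a pseudocount of 1 FPKM lowers the difference. Prupe.1G128200 had a ratio of 3.22 (2.67 to 3.87) and Prupe.1G128900 one of 3.17 (2.41 to 4.25). The other 2 members with reads on the right were under 1 FPKM in both libraries. Prupe.1G129000 had a ratio of 3.63 (1.17 to 15.6) and Prupe.1G128600 one of 10.3 (2.44 to 89.7).

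On the left the ratios ran from 3.00 in Prupe.1G127500 (interval 2.57 to 3.52) to 5.82 in Prupe.1G127300 (4.43 to 7.80). Prupe.1G127600 had a ratio of 5.23 (4.43 to 6.18) and Prupe.1G127800 one of 4.77 (4.50 to 5.06). Prupe.1G127900, the next gene to the right, had a ratio of 3.86 (3.56 to 4.19). The counting intervals of Prupe.1G127300, Prupe.1G127600, Prupe.1G127800 and Prupe.1G127900 lie above that of Prupe.1G127500. Prupe.1G127700, on the minus strand, had a ratio of 3.47 (2.53 to 4.80), and Prupe.1G127400 one of 3.88 (1.98 to 7.96).

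The dominant gene had the smallest ratio of the 14. Prupe.1G128700 had a ratio of 1.62 (interval 1.61 to 1.63), and the other 13 members with reads all had larger ones. In 11 of these 13 the interval lay wholly above that of Prupe.1G128700. The exceptions were Prupe.1G128400 and Prupe.1G129000, whose lower bounds of 1.55 and 1.17 fall below it. Its difference of 0.70 took place 3, counted from the largest upward, among the 43 annotated genes whose mean reached 1000 FPKM, of which 14 were above their control value.

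**Figure D4:**
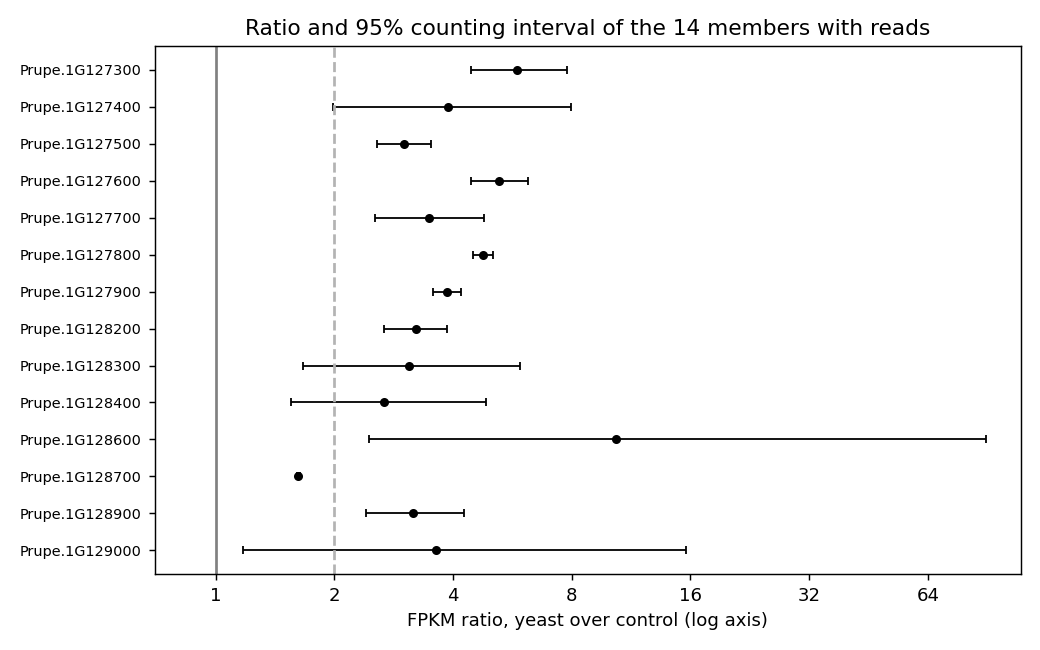
FPKM ratio, yeast over control (log axis), with its exact 95% counting interval, for the 14 members with reads, in order along Pp01 from top to bottom; the solid line marks 1 and the dashed line 2. All 14 intervals lie above 1, and the ratio of Prupe.1G128700, 1.62, is the only one below 2.

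Because 1 gene outweighs the rest, the cluster was summed with and without it. All 15 genes together had 8553 FPKM in the yeast library and 5062 FPKM in the control library, a ratio of 1.69 (interval 1.68 to 1.70). Without Prupe.1G128700 the other 14 had 555 FPKM in the yeast library and 131 FPKM in the control library, a ratio of 4.25 (4.08 to 4.42). Of the 3491 FPKM by which the cluster was higher with the yeast, Prupe.1G128700 made up 87.8% and the 7 genes on the left 11.4%. The genes on the left summed to 515 FPKM with the yeast and 118 FPKM without it, a ratio of 4.36 (4.18 to 4.55). On the right, without Prupe.1G128700, the sums were 39.7 FPKM with the yeast and 12.4 FPKM without it, a ratio of 3.20 (2.77 to 3.68). The 4 genes of the minus strand summed to 36.4 FPKM with the yeast and 11.2 FPKM without it, a ratio of 3.25 (2.81 to 3.78).

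The cluster took 1.57% of the summed FPKM of all annotated genes in the yeast library and 0.912% in the control library. Prupe.1G128700 alone took 1.47% in the yeast library and 0.888% in the control library. The other 14 members took 0.102% in the yeast library and 0.0235% in the control library. In bulk RNA of a wound, a larger share of cells that express these genes and more RNA per cell cannot be told apart.

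The 4 annotated genes of other forms that start in the same window differed among themselves in direction. Of these, 2 reached 1 FPKM and none (0) passed the rule, which 2.30% of all annotated genes tested passed upward and 2.33% downward. Prupe.1G128000, of 3 exons on the minus strand from 10017644 to 10019334, lies between the left and right parts and had 12.4 FPKM in the yeast library and 18.9 FPKM in the control library, a difference of -0.57. Prupe.1G129100, of 3 exons at the right edge, had 0.285 FPKM in the yeast library and 0.994 FPKM in the control library, and ends outside the limit of the rule. Prupe.1G128500, of 3 exons, had 1.07 FPKM in the yeast library and 0.0803 FPKM in the control library, a difference of 0.94 with the control value resting on 1 fragment. That gene and Prupe.1G128400 overlap by 111 bases on opposite strands, and no source used here says whether the kit preserved strand, so the low values of both are uncertain. Prupe.1G128100, of 1 exon, was listed at 0 in both libraries.

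Outside the cluster, 17 annotated genes lie within 50 kb of either end and start outside the window. Of these, 11 reached 1 FPKM and none (0) was higher or lower by the rule. Over all annotated genes tested 2.30% were higher and 2.33% lower, so a count of 0 among 11 is near that share. The differences of the 11 ran from -0.49 to 0.76. The upper end was Prupe.1G127200, which runs from 9984197 to 9985138 across the left limit of the window and so is not a member. This gene also has 2 exons and a short intron of 132 bases. It had 1.78 FPKM in the yeast library and 0.639 FPKM in the control library, a ratio of 2.78 (interval 1.44 to 5.50). The next gene of 2 exons to the left, Prupe.1G126900, with an intron of 131 bases, had 0.230 FPKM in the yeast library and 0.0239 FPKM in the control library, the second value resting on less than 1 fragment. Farther left, Prupe.1G126300, of 2 exons and 2579 bases, had 49.7 FPKM in the yeast library and 56.1 FPKM in the control library.

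In crowded stretches of 2-exon genes elsewhere in the genome, most of these genes stayed under 1 FPKM in both libraries. The 77 kb from the start of a gene of 2 exons hold a median of 3 such genes, that gene included, and 15 or more for 5 of the 4518. Taking stretches that do not overlap, 15 stretches hold 10 or more, and the most crowded, with 17 genes on Pp04 from 8377807 to 8445404, had 2 genes of at least 1 FPKM, both lower. The 14 stretches other than that of the cluster hold 152 genes of 2 exons, of which 29 (19.1%) reached 1 FPKM. By the rule 1 was higher and 2 were lower. Among all tested genes of 2 exons 3.66% were higher and 1.83% lower. In the cluster 12 of 15 members (80.0%) reached 1 FPKM, 3 of them only with the yeast, compared with 31.4% of all genes of 2 exons. In the control library alone 9 of the 15 members did, compared with 17.1% of the genes in the other stretches and 29.6% of all genes of 2 exons. The sums of the other stretches ran from 0.739 to 410.2 FPKM in the yeast library and from 0.364 to 477 FPKM in the control library. The cluster without Prupe.1G128700, at 555 FPKM with the yeast and 131 FPKM without it, was above the highest of them in the yeast library and below it in the control library. This comparison was set up after the values of the cluster were known, and carries no test.

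**Figure D5:**
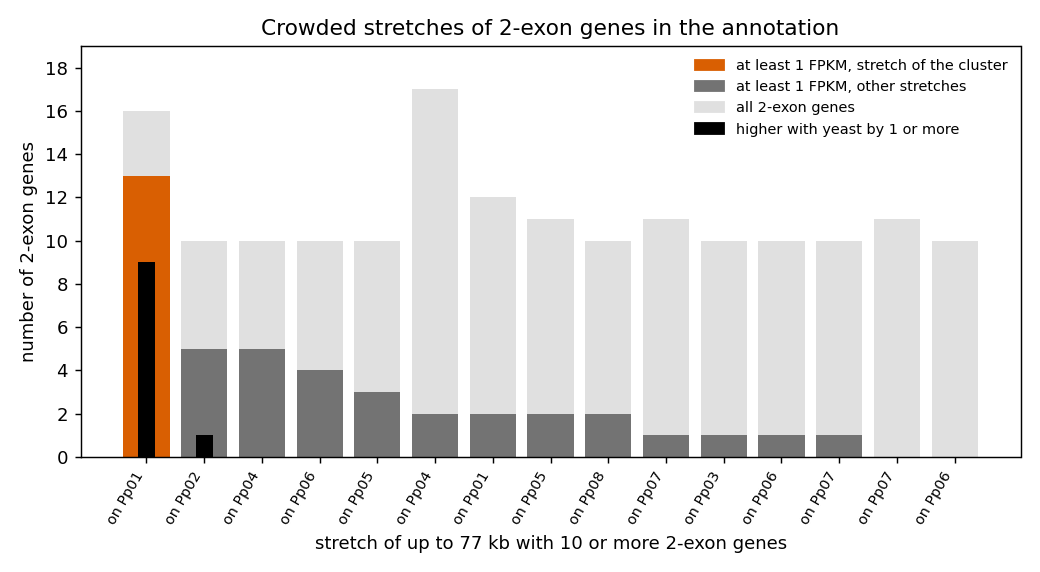
Number of 2-exon genes (light bars), of those with at least 1 FPKM in 1 library (coloured for the stretch with the cluster, dark grey for the others) and of those higher with the yeast by 1 or more (narrow black bars) in the 15 stretches of up to 77 kb that hold 10 or more such genes, ordered by the number with at least 1 FPKM. The stretch with the cluster, which also takes in Prupe.1G127200, has 16 genes, 13 of at least 1 FPKM and 9 higher; no other stretch has more than 5 of at least 1 FPKM.

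How reads were shared out limits the values of single members. For 11 of the 15 members the deposited gene table has the value of their own annotated transcripts (relative tolerance 0.0001). Prupe.1G127800 and Prupe.1G127900 share 1 merged value there, 213 FPKM in the yeast library and 47.3 FPKM in the control library. Prupe.1G127400 is listed with 2.52 FPKM in the yeast library and 0.350 FPKM in the control library, which are the values of an unannotated transcript on its strand and not its own. For Prupe.1G127600 the gene table gives 40.5 FPKM in the yeast library and 7.75 FPKM in the control library, against transcript sums of 40.7 and 7.79 FPKM.

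Coverage gives a further view of how reads were divided. Coverage times length is the number of covered bases, which is whole when every read enters with full weight. Among the 11 members where it could be resolved in both libraries, it was whole in both libraries (tolerance 0.05 bases, up to 300000 bases) in 5, namely Prupe.1G127700, Prupe.1G128400, Prupe.1G128600, Prupe.1G128900 and Prupe.1G129000. It was not whole in at least 1 library in the other 6, which fully weighted reads alone would not give. Over 8053 annotated genes with 1 transcript it was not whole in 43.0%, and over 1654 such genes of 2 exons in 36.3%. Prupe.1G127600, among the 6 members, has 2 annotated transcripts and so has no counterpart in these sets. The ratios of the 5 members with whole values ran from 2.68 to 10.3, all of them above that of Prupe.1G128700. The intervals of Prupe.1G128400 and Prupe.1G129000, with lower bounds of 1.55 and 1.17, reach below that ratio. The 10.3 of Prupe.1G128600 rests on 2 fragments in the control library. In Prupe.1G127900 the number of covered bases was also not whole in the control library, and its yeast value could not be resolved. For Prupe.1G128700 and Prupe.1G127800 the deposited decimals were too few to tell, and how many of their reads match other members was not tested.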

How the data were processed

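RNA of 1 yeast-treated and 1 control wound sample was sequenced, and groups were taken from the treatment labels. Per the submitters' processing notes, HISAT2 (an aligner) and HTSeq 0.6.1 (a read counter) were used, with no role or order given; no source used here names the assembler, the annotation or the build. The authors deposited FPKM values in 1 gene table (27806 rows) and 1 transcript table per library (51199 rows), and, in the latter, coverage as the mean signal per base. Transcript FPKM was summed per annotated gene over the whole table. Fragments were estimated as coverage times length over 300 bases, the most frequent product among barely covered transcripts. Differences of log2(FPKM + 1) were counted at 1 or more for genes of at least 1 FPKM in 1 library. With 1 library per group no test was possible. Intervals and limits cover counting error only. They take fragments as independent counts, and no molecular identifiers were used to check that. Simulated data were also put through the calling rule. That run could not measure variation between fruit, because each group has 1 library, and no result here rests on it. Python 3.11.15, pandas 2.3.3, numpy 2.4.6, scipy 1.17.1 and matplotlib 3.10.9 were used.

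The members, lists and comparisons were chosen with earlier results of these data known. All members are named, and neighbours within 50 kb where they bear on them; genes outside were named after their values were seen. Lists of related genes and tissue markers by product name, promoter motifs and protein identities were planned and not run, because identifiers carry no product names and no sequences were used here. Alternatives were pseudocounts of 0.1 and 5 FPKM, a filter of 5 FPKM or none, a threshold of 2, upper quartile and trimmed mean scaling, gene table values, added unannotated transcripts, and leaving out the most abundant member.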

Additional observations from a re-analysis of the deposited data

Results flagged for a closer look

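Reads over the members were also assigned to 4 unannotated transcripts, which enter no sum above and which were above their control value in the yeast library. Of these, 3 begin inside 1 member and end inside another. MSTRG.700.1, of 3 exons on the plus strand, starts at the first base of Prupe.1G127800 and ends at the last of Prupe.1G127900, and had 18.8 FPKM in the yeast library and 3.13 FPKM in the control library. MSTRG.701.1, of 2 exons on the minus strand, runs from inside Prupe.1G127800 to inside Prupe.1G127900 with 4954 bases of intron, and had 14.4 FPKM in the yeast library and 4.15 FPKM in the control library. MSTRG.695.1, of 2 exons and 213 bases on the minus strand, runs from inside Prupe.1G127300 to inside Prupe.1G127500 over 14473 bases, and had 2.52 FPKM in the yeast library and 0.350 FPKM in the control library, on about 13 and 2 fragments. MSTRG.708.1, of 2 exons on the minus strand, lies wholly inside Prupe.1G128700, with an intron of 99 bases beside 98 in that gene; it had 68.2 FPKM in the yeast library and was listed at 0 in the control library. How reads were divided between these transcripts and the members was not tested.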

How the results depend on the processing

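The count of 9 higher members became 11 with a pseudocount of 0.1 FPKM or by the ratio rule, and 6 with a pseudocount of 5 FPKM. With a filter of 5 FPKM it was 8, and at a threshold of 2 it was 3. It stayed at 9 with no filter, under both scalings and with gene table values. Over all annotated genes the counts of 307 higher and 311 lower became 533 and 490 with a pseudocount of 0.1 FPKM, 110 and 105 with 5 FPKM, and 59 and 63 at a threshold of 2. With a filter of 5 FPKM 206 were higher and 198 lower, and with gene table values 207 were higher and 226 lower. By the ratio rule, chosen after seeing the data, 556 were higher. The summed ratio of the cluster (1.69) became 4.25 without the most abundant member, 1.67 under trimmed mean scaling and 1.71 with unannotated transcripts added. On the right (1.63) it became 3.20, 1.61 and 1.64 under the same settings, and on the left (4.36) it became 3.94 without Prupe.1G127800. The share of all FPKM, 1.57% with the yeast and 0.912% without it, became 1.42% and 0.842% over all transcripts, 0.946% and 0.557% as a share of fragments, and 0.102% and 0.0235% without the most abundant member. No sum turned its direction under these alternatives. Members with fewer than 3 fragments in a library rest on counting too thin for a firm ratio. No paired analysis was possible because there is only 1 library of each treatment; none could be left out.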
